A study of Homo sapiens with 10 samples.

Results

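The protein genes of the cytosolic ribosome were followed in EndoC-βH1 cells, a clonal human line that makes insulin, after transfection with an siRNA against SRp55 or with a control siRNA. Members were the protein-coding genes whose current symbol is RPL or RPS plus a number, with RPLP0, RPLP1, RPLP2 and RPSA, and without the S6 kinases and the Y-linked copies. The rule used no measured value and gave 85 of the 26346 genes listed, 53 of the large and 32 of the small subunit. PolyA RNA was sequenced from 5 preparations with the SRp55 siRNA, labelled siSR#2, and 5 with the control siRNA, which the design text calls independent. The labels name 1 siRNA against SRp55 and 1 cell line, so the groups stand for that reagent in that line.

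Ribosomal proteins are made in nearly equal amounts because each ribosome needs 1 copy of most of them, and surplus protein is degraded. Most of their mRNAs begin with a C and a run of pyrimidines, the 5′ terminal oligopyrimidine (TOP) tract, through which mTOR and LARP1 control their translation. Several human ribosomal protein genes also limit themselves through splice forms that nonsense-mediated decay removes. In beta cells ribosomes supply the large output of proinsulin.

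The start sequences are shown because the TOP tract is the feature that the family shares and that the rule did not use. Each covers 10 bases before and 20 from a RefSeq transcript start (GRCh38.p14), on the transcript's strand, and capitals mark the pyrimidine run that opens with C at the start. The stalk proteins come first, then the abundant RPS24 and RPL13A, then 4 ubiquitous members each followed by its paralog. The windows are RPLP0 chr12:120201092-120201121 (-), RPLP1 chr15:69452808-69452837 (+), RPLP2 chr11:809957-809986 (+), RPS24 chr10:78033853-78033882 (+), RPL13A chr19:49487598-49487627 (+), RPL22 chr1:6199576-6199605 (-), RPL22L1 chr3:170870176-170870205 (-), RPL26 chr17:8383174-8383203 (-), RPL26L1 chr5:172958719-172958748 (+), RPL36A chrX:101391001-101391030 (+), RPL36AL chr14:49620607-49620636 (-), RPS27 chr1:153990752-153990781 (+) and RPS27L chr15:63157458-63157487 (-).
RPLP0: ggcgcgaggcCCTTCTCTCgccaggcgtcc
RPLP1: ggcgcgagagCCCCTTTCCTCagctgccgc
RPLP2: tcggcgccttCCTTTTCCTCCCTgtcgcca
RPS24: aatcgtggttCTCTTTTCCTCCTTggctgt
RPL13A: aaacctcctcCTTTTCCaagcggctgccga
RPL22: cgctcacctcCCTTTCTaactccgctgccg
RPL22L1: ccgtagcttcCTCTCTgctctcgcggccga
RPL26: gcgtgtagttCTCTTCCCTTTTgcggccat
RPL26L1: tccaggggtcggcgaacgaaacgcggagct
RPL36A: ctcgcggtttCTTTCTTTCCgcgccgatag
RPL36AL: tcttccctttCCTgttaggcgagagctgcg
RPS27: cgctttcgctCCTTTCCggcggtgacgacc
RPS27L: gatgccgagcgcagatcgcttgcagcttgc

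A C followed by at least 4 pyrimidines, read on the transcript strand only, opened 47 of the 84 member starts in the RefSeq table (56.0%), against 4.07% of all 35116 starts there. These 47 starts belonged to 47 of the 68 members matched. RPL26, RPL36A and RPS27 had the tract at the annotated start base, as did both RPL22 and RPL22L1. The starts of RPL26L1, RPL36AL and RPS27L did not. In the RPL36AL window pyrimidines run across the start, and the search reads only from the start base on. None of the 3 starts of RPL15 had the tract at that base, nor did the start of RPS7. Pyrimidines also run across the RPS7 start. The RPL15 window at chr3:23917122-23917151 (+) holds the run ctctttcctt further in. Runs placed like these are not counted in any of the shares above.

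Libraries held 61.9 to 189.8 M reads assigned to transcripts (M, 10 to the power 6). Levels are RPKM, reads per kilobase of transcript and M reads, summed over the transcripts of a gene. SRSF6, which encodes SRp55, was at 24.9 ± 3.78 RPKM in SRp55 siRNA libraries and 98.2 ± 3.24 RPKM in control libraries (SD, n = 5 in each group throughout). INS lay between 4237 and 12705 RPKM, GCG at no more than 0.28 RPKM, and PPY and PNLIP were listed at 0 in every library. SST, another islet hormone, lay between 41.6 and 240.3 RPKM. Of 18 beta cell markers limma called SLC30A8 higher and UCN3 lower, against 5.02% of all tested genes called. An unadjusted p under 0.05 in limma was reached by 9, against 21.9% of all tested genes. The groups did not overlap for 5, against 7.92% of all tested genes, and the median log2 fold change was -0.26. The part of these marker differences in the results on ribosomal proteins was not tested. Of 7 other islet, 9 acinar and duct and 8 mesenchymal, endothelial and immune markers, 4, 2 and 2 were tested and none was called, with 2, 0 and 0 at that unadjusted p. Of annotated ribosomal protein pseudogenes 1, RPS10P7, was listed, at a mean of 0.530 RPKM. Reads from the other pseudogene copies are not separately listed, so the level of any member may hold some of them.

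The ribosomal protein mRNAs held a large share of the RNA, and their total did not separate the groups. The members together took 8.70%, 9.48%, 9.32%, 8.73% and 7.76% of all RPKM in SRp55 siRNA replicates 1 to 5. They took 8.59%, 9.16%, 8.10%, 10.8% and 7.82% in control replicates 1 to 5. The means were 8.80% ± 0.675 in SRp55 siRNA libraries and 8.89% ± 1.17 in control libraries, and the ranges overlapped, with control replicate 4 highest of all. As a share of assigned reads the members took 3.41% ± 0.309 in SRp55 siRNA libraries and 3.25% ± 0.634 in control libraries, a smaller share than by RPKM, which divides by length.

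The members were high or low together in a library, within both groups. The ribosomal index, the median over members of each library's RPKM over the member's geometric mean, was 1.21, 1.17, 1.11, 1.17 and 0.78 in SRp55 siRNA replicates 1 to 5 and 1.03, 0.823, 0.785, 1.46 and 0.711 in control replicates 1 to 5. Control replicate 4 was the highest control library for 78 of 84 members. SRp55 siRNA replicate 5 was the lowest of its group for 74. The index is not scaled between libraries, and part of these swings was shared with other genes. The median-of-ratios size factor, which sets the median gene of each library equal, was also highest among controls in replicate 4 (1.103). It was lowest among SRp55 siRNA libraries in replicate 5 (0.908). After that scaling the member sum was still the highest control value in replicate 4 (52797) and the lowest SRp55 siRNA value in replicate 5 (34885). The culture, RNA or library step behind these differences was not tested.

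**Figure D1:**
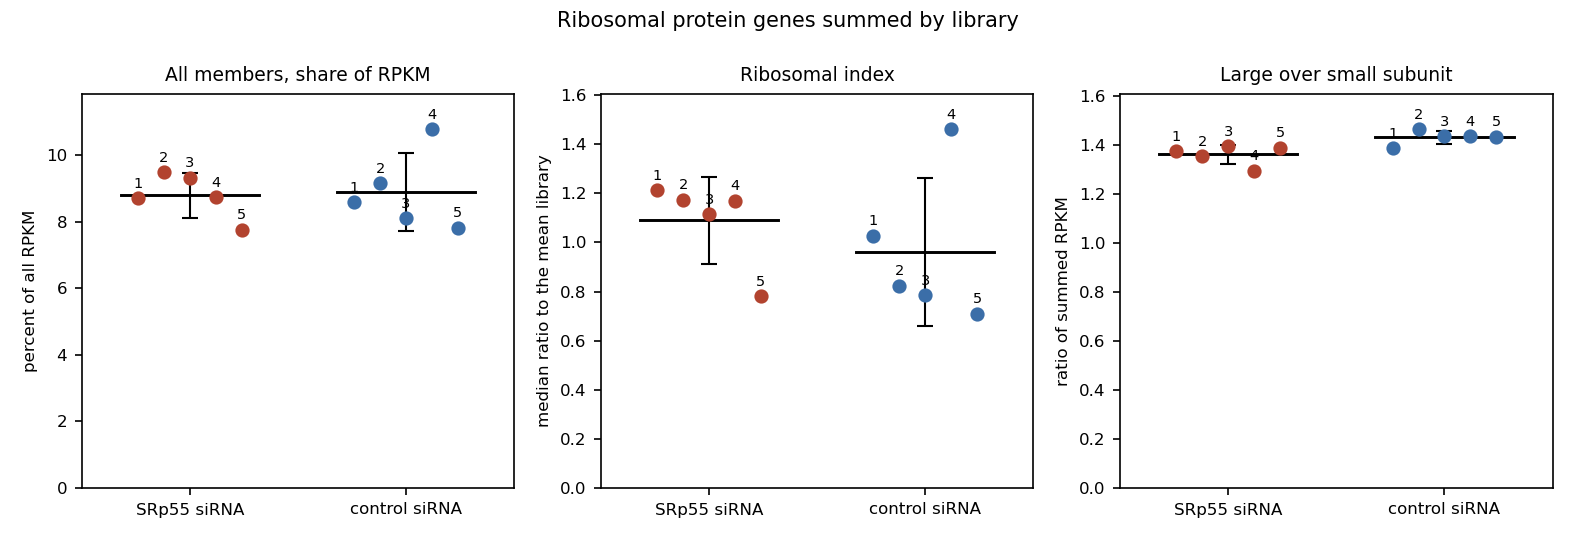
Points are libraries with their replicate number, bars are means and whiskers SD (n = 5), SRp55 siRNA left of control siRNA. The left axis is the members' percent of all RPKM, the middle axis the ribosomal index (a ratio with no unit) and the right axis the ratio of summed large to small subunit RPKM, for which the means were 1.36 in SRp55 siRNA and 1.43 in control siRNA libraries.

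Of the 85 members 84 passed the filter of a mean of at least 0.5 RPKM, and RPL10L, a testis paralog of RPL10, was listed at 0 in every library. The other levels ran from 0.998 RPKM for RPL3L, a paralog of RPL3 made mainly in heart and skeletal muscle, to 1244 RPKM for RPL41, the smallest ribosomal protein. RPS24, RPL13A, RPS7 and RPS3 followed RPL41, at means of 1140, 1032, 1015 and 1004 RPKM. These neighbours differed by far less than their spread, which for RPS24 alone was 1216 ± 224 RPKM in SRp55 siRNA libraries and 1064 ± 314 RPKM in control libraries. At least 100 RPKM was reached by 77 members and at least 500 RPKM by 35. At the low end stood RPL3L, RPL39L, RPL22L1, RPS27L and RPL26L1, all paralogs, at means up to 50.2 RPKM.

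After the SRp55 siRNA, RPLP0 was lower and the other 83 tested members did not pass the test. Calls rest on limma fitted to log2(RPKM + 0.5), with p adjusted by Benjamini-Hochberg over all 13630 tested genes and a threshold of 0.05. The 1 member called of 84 stands against 5.02% of all tested genes called, 3.76% higher and 1.25% lower. Log2 fold changes are SRp55 siRNA over control siRNA and relative to the median tested gene. The member median was 0.11, against 0 for all tested genes, with 56 members above and 28 below the median gene. It was positive in every alternative run, between 0.05 and 0.21.

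Within 0.2 of the median gene on the log2 scale lay 59 members, and within 0.5 lay 79. An unadjusted p under 0.05 in limma was reached by 5 of 84 members, against 21.9% of all tested genes. The groups did not overlap for 2 members, RPLP0 and RPL7, both lower, against 7.92% of tested genes that did not overlap, 5.61% higher and 2.32% lower. The call of RPLP0 was the only one that all alternatives shared. Without control replicate 4 limma called 3 members (RPL39L and RPS15A higher, RPLP0 lower), with 7.96% of all genes called, and without SRp55 siRNA replicate 5 it called RPS15A and RPLP0, with 5.94% called. Leaving out any other library left RPLP0 alone, with 3.38%, 2.34%, 2.19% and 2.33% of all genes called without SRp55 siRNA replicates 1 to 4 and 2.42%, 1.9%, 2.25% and 1.97% without control replicates 1, 2, 3 and 5.

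Other settings added 4 members at most. RPLP0 stayed alone with pseudocounts of 0.1 and 1 (5.04% and 5.0% of all genes called), with no filter on low values (3.1%) and with a minimum mean of 2 RPKM (5.17%). Median-of-ratios scaling, which sets the median gene of each library equal, called 3 members, with 6.85% of all genes called. Scaling to assigned reads called 4, with 6.99%, and so did the replicate number as a block, with 13.1%. Summed reads in place of RPKM called 5, with 17.2%. RPL7, RPL15, RPS15A, RPL39L and RPL7L1 are the members concerned.

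**Figure D2:**
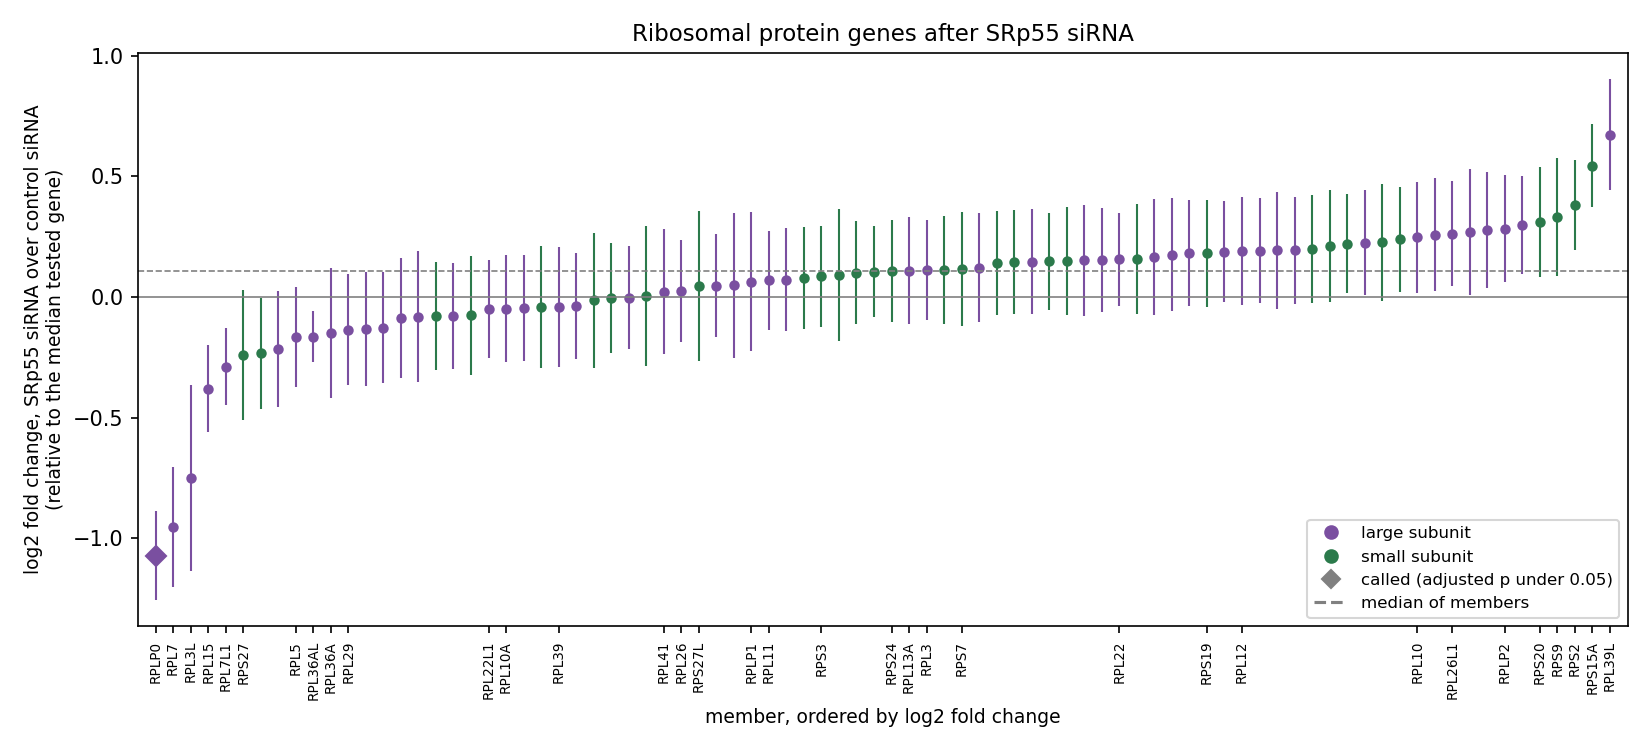
The log2 fold change of each of the 84 tested members (vertical axis, relative to the median tested gene, whiskers 1 SE) in ascending order along the horizontal axis, which labels the members named by the rule, coloured by subunit. RPLP0, the diamond at -1.07, is the member called, and 79 members lie within 0.5 of the zero line.

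The stalk of the large subunit recruits the translation factors that hydrolyse GTP, and it is built from P0 and paired acidic proteins, P1 and P2. RPLP0 (ENSG00000089157.11, chromosome 12, 120634489 to 120639038 in GRCh37, reverse strand), which encodes P0, was at 293, 173, 225, 210 and 144 RPKM in SRp55 siRNA replicates 1 to 5. In control replicates 1 to 5 it was at 391, 391, 376, 489 and 348 RPKM. Every SRp55 siRNA library lay below every control library, and each of the 5 same-numbered pairs showed the fall. The mean was 209 ± 56.6 RPKM in SRp55 siRNA libraries and 399 ± 53.0 RPKM in control libraries, with a log2 fold change of -1.07 (SE 0.18, limma adjusted p = 0.017). Most of the fall lay in RPLP0 transcripts annotated as targets of nonsense-mediated decay. These summed to 138 ± 45.5 RPKM in SRp55 siRNA libraries and 310 ± 37.6 RPKM in control libraries. They held 66.7% ± 14.3 and 77.8% ± 2.65 of RPLP0 RPKM, with overlapping ranges, and RPLP0 was not called for transcript usage. RNA came from whole cultures, so less RNA per cell and fewer expressing cells cannot be told apart.

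RPLP1 and RPLP2, the acidic partners, did not pass. RPLP2 had 474, 417, 402, 417 and 304 RPKM in SRp55 siRNA replicates 1 to 5, against 353, 280, 230, 500 and 227 RPKM in control replicates 1 to 5 (log2 fold change 0.28, SE 0.22, limma adjusted p = 0.33). Its groups overlapped, with control replicate 4 highest of all. RPLP1 averaged 869 ± 283 RPKM in SRp55 siRNA libraries and 777 ± 262 RPKM in control libraries (0.06, adjusted p = 0.77). The ratio of RPLP0 to RPLP2 RPKM within a library was 0.514 ± 0.078 in SRp55 siRNA libraries, at most 0.618, and 1.33 ± 0.280 in control libraries, at least 0.978.

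**Figure D3:**
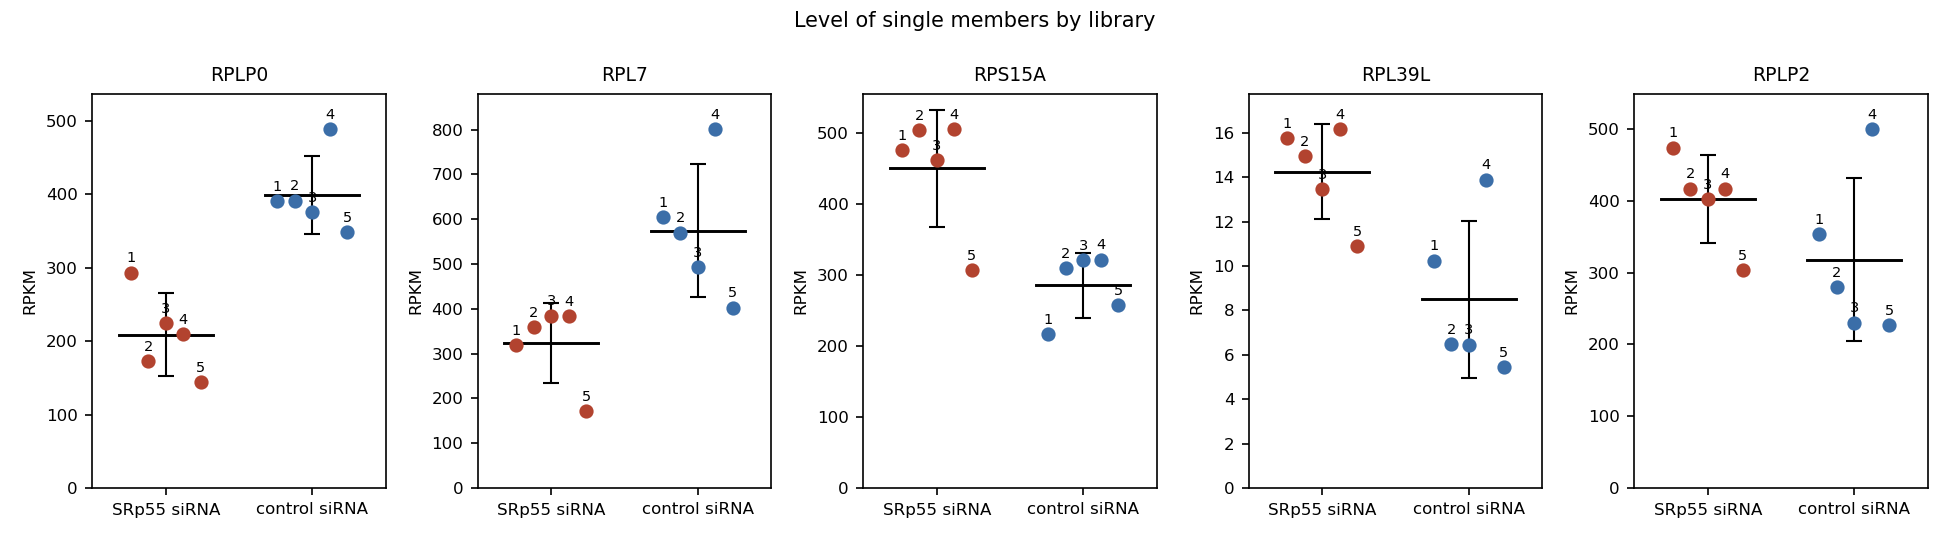
RPKM (vertical axis, from 0) of RPLP0, RPL7, RPS15A, RPL39L and RPLP2, SRp55 siRNA left of control siRNA. Points are libraries with their replicate number, bars are means and whiskers SD (n = 5). RPLP0 and RPL7 do not overlap between the groups, and control replicate 4 is the highest control library in each panel.

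RPL7, a large subunit protein that binds rRNA, had the next largest difference. It was at 319, 359, 384, 383 and 172 RPKM in SRp55 siRNA replicates 1 to 5 and at 604, 570, 492, 801 and 403 RPKM in control replicates 1 to 5. The groups did not overlap, the closest values being 384 RPKM in SRp55 siRNA replicate 3 and 403 RPKM in control replicate 5. The log2 fold change of RPL7 was -0.95 (SE 0.25, limma adjusted p = 0.078), so it did not pass as planned. RPL7 passed after median-of-ratios scaling (adjusted p = 0.015), with the replicate block (0.019), scaled to assigned reads (0.020) and on summed reads (0.0043). Both RPL7 transcripts above 5% usage had lower means in SRp55 siRNA libraries, ENST00000396466.1 at 248 ± 65.8 RPKM against 440 ± 135 RPKM in control libraries and ENST00000435330.1 at 63.8 ± 30.7 RPKM against 121 ± 48.4 RPKM in control libraries.

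RPL5 and RPL11 carry 5S rRNA into the large subunit and, when assembly fails, bind MDM2 and stabilize p53. RPL5 averaged 448 ± 167 RPKM in SRp55 siRNA libraries and 448 ± 46.3 RPKM in control libraries (log2 fold change -0.17, limma adjusted p = 0.90). RPL11 averaged 779 ± 116 RPKM in SRp55 siRNA libraries and 706 ± 217 RPKM in control libraries (0.07, adjusted p = 0.66). The RPL5 mean of SRp55 siRNA libraries rests on replicate 1, at 739 RPKM, since the others lay between 311 and 400 RPKM.

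RPL15, a large subunit protein mutated in some families with Diamond-Blackfan anaemia, showed the difference by transcript end given further on. Summed over transcripts it was at 484, 489, 452, 444 and 322 RPKM in SRp55 siRNA replicates 1 to 5 and at 584, 472, 481, 728 and 407 RPKM in control replicates 1 to 5. The groups overlapped and RPL15 was not called (log2 fold change -0.38, SE 0.18, limma adjusted p = 0.41). On summed reads, which give long transcripts more weight, it was called lower (-0.65, adjusted p = 0.00054).

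In the small subunit none of 32 members was called by limma, 2 had an unadjusted p under 0.05 (21.9% of all tested genes did), and 25 lay above the median gene (median log2 fold change 0.11; large subunit 0.07, with 31 of 52 above). The members with the largest positive values were RPS15A, RPS2, RPS9 and RPS20, at 0.54, 0.38, 0.33 and 0.31. RPS15A, which binds rRNA of the small subunit, was at 475, 503, 462, 505 and 307 RPKM in SRp55 siRNA replicates 1 to 5 and at 217, 309, 321, 321 and 258 RPKM in control replicates 1 to 5. The groups overlapped through SRp55 siRNA replicate 5. RPS15A had a limma adjusted p of 0.055, and passed with the replicate block (0.032), scaled to assigned reads (0.046), without SRp55 siRNA replicate 5 (0.017) and without control replicate 4 (0.043). On summed reads its log2 fold change was 0.29 (adjusted p = 0.064).

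RPS2, which lines the mRNA entry channel, averaged 425 ± 106 RPKM in SRp55 siRNA libraries and 299 ± 53.4 RPKM in control libraries, higher in 5 of 5 pairs, with overlapping groups (limma adjusted p = 0.16). RPS3, which lies beside it at the entry channel, averaged 1055 ± 144 RPKM in SRp55 siRNA libraries and 953 ± 323 RPKM in control libraries (log2 fold change 0.09, adjusted p = 0.63). RPS19, the gene most often mutated in Diamond-Blackfan anaemia, averaged 507 ± 82.0 RPKM in SRp55 siRNA libraries and 430 ± 165 RPKM in control libraries (0.18, adjusted p = 0.48). The ratio of summed large to small subunit RPKM was 1.36 ± 0.040 in SRp55 siRNA libraries and 1.43 ± 0.028 in control libraries. Without RPLP0 and RPL7 it was 1.33 ± 0.041 in SRp55 siRNA libraries and 1.37 ± 0.026 in control libraries, and the ranges overlapped in both forms. The ratio was lower in the SRp55 siRNA library in 5 of 5 same-numbered pairs, and in 4 of 5 without RPLP0 and RPL7.

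Because the members share their swings between libraries, each was also divided by the ribosomal index, a choice made after seeing the data. The index is made from the same genes, so this narrows their spread by construction. The groups then did not overlap for 7 of 84 members, 5 lower and 2 higher, against 3.43% of all tested genes, 1.87% lower and 1.56% higher. With the control mean at 100%, RPLP0 was at 44.2% ± 7.99 in SRp55 siRNA libraries against 100% ± 16.2 in control libraries. RPL7 was at 48.3% ± 8.36 in SRp55 siRNA libraries against 100% ± 9.46 in control libraries. RPL15 was at 71.2% ± 2.57 in SRp55 siRNA libraries against 100% ± 7.33 in control libraries. In each of these 3 large subunit members every SRp55 siRNA library lay below every control library.

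RPS26, which lies at the exit of the mRNA channel, was at 78.8% ± 4.97 in SRp55 siRNA libraries against 100% ± 8.86 in control libraries on this scale. It is named because its values were seen, as it lies outside the naming rule. RPLP2 was at 113% ± 5.46 in SRp55 siRNA libraries against 100% ± 6.63 in control libraries. RPL39L was at 152% ± 9.11 in SRp55 siRNA libraries against 100% ± 12 in control libraries. RPL3L, the remaining one, was near the filter, at 0.41 to 0.66 RPKM in SRp55 siRNA libraries and 0.40 to 3.90 RPKM in control libraries. In the fit over all genes scaled to the members, limma called RPLP0 (adjusted p = 0.00031) and RPL7 (0.00039), with 1.8% of all genes called, and left out RPL15 (0.052) and RPL39L (0.11).

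**Figure D4:**
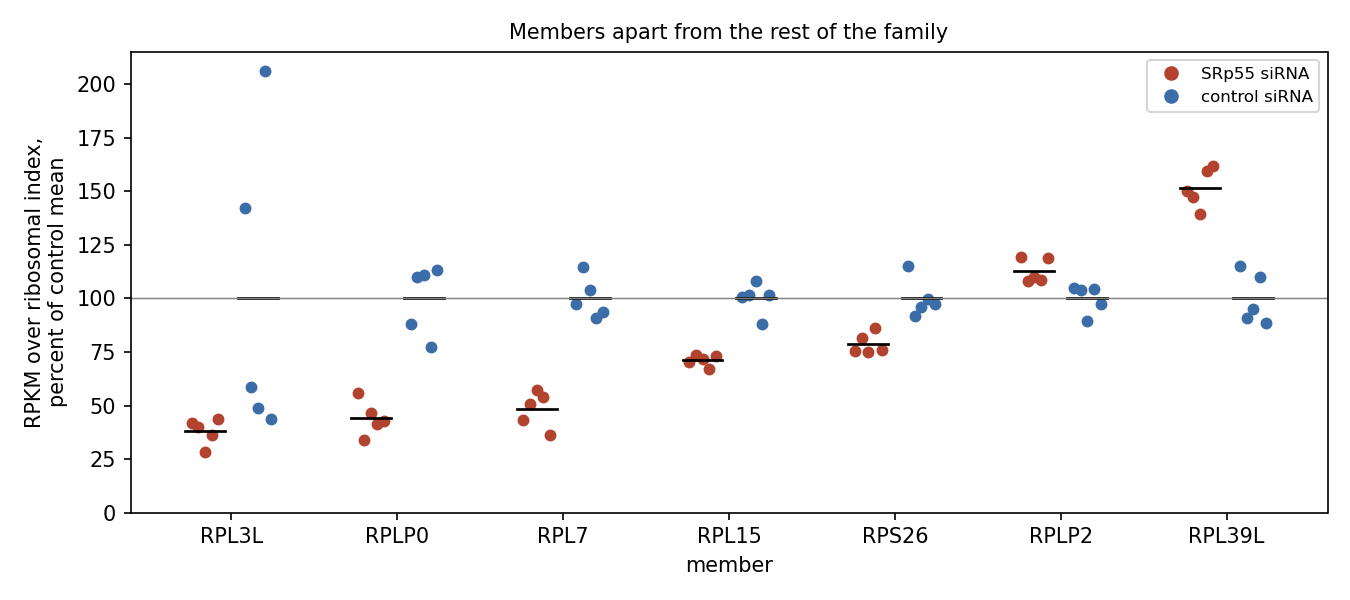
RPKM over the ribosomal index as percent of the control mean (vertical axis, from 0) for the 7 members whose groups do not overlap on that scale (horizontal axis), SRp55 siRNA left of control siRNA in each pair. Points are libraries and bars means, with RPLP0 at 44.2% and RPL7 at 48.3% of the control mean and RPL39L at 152%.

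The paralogs were mostly minor next to their ubiquitous partners. RPL39L, an RPL39 copy best known from testis and some tumours, was at 15.8, 14.9, 13.5, 16.2 and 10.9 RPKM in SRp55 siRNA replicates 1 to 5 and at 10.2, 6.47, 6.46, 13.9 and 5.44 RPKM in control replicates 1 to 5. The groups overlapped through control replicate 4. RPL39L had a log2 fold change of 0.67 (SE 0.23, limma adjusted p = 0.080), and passed after median-of-ratios scaling (0.038), with the replicate block (0.027), scaled to assigned reads (0.041), on summed reads (0.015) and without control replicate 4 (0.015). It made 3.23% ± 0.948 of the RPL39 level in SRp55 siRNA libraries and 1.97% ± 0.773 in control libraries.

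RPL26L1 made 17.1% ± 0.929 of the RPL26 level in SRp55 siRNA libraries and 14.5% ± 1.47 in control libraries, and these ranges did not overlap, although neither gene was called (log2 fold change 0.26 for RPL26L1 and 0.02 for RPL26). RPL7L1, whose yeast relative works in ribosome assembly, averaged 73.9 ± 15.9 RPKM in SRp55 siRNA libraries and 82.8 ± 10.2 RPKM in control libraries (-0.29, limma adjusted p = 0.55). On summed reads RPL7L1 was called lower (-0.53, adjusted p = 0.00080). Its longest tested transcript, ENST00000493763.1, was at 10.7 ± 2.65 RPKM in SRp55 siRNA libraries and 19.2 ± 1.67 RPKM in control libraries, without overlap. The share of RPL7L1 RPKM held by that transcript did overlap, at 8.75% to 21.8% in SRp55 siRNA and 19.3% to 27.2% in control libraries. RPL7L1 was not called for transcript usage (limma diffSplice adjusted p = 0.83). The RPL7L1 level was 23.8% ± 5.24 of the RPL7 level in SRp55 siRNA libraries and 14.9% ± 2.22 in control libraries.

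RPL36AL, a retrotransposed copy of RPL36A, was at 119 ± 9.25 RPKM in SRp55 siRNA libraries and 124 ± 10.1 RPKM in control libraries (-0.16), and it made 60.6% ± 16.9 of the RPL36A level in SRp55 siRNA libraries and 62.2% ± 20.5 in control libraries. RPL22L1 (-0.05) and RPS27L (0.04), a p53 target, were near the median gene.

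Transcript usage, the percent of a gene's RPKM held by one transcript, was compared because SRp55 is a splicing factor. The files list 782 transcripts for the members. Of 64 members with at least 2 transcripts tested, 1 was called, RPL15 (limma diffSplice F test, adjusted p under 0.05 and a shift of at least 10 percentage points), against 0.282% of the 9919 genes tested. RPL15 was also the 1 member called with the replicate block (0.313% of genes) and on reads (0.484%). A shift of at least 10 points in some transcript, whatever its p, was seen in 14 of the 64 members and in 36.3% of all genes tested.

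RPL15 (ENSG00000174748.14, chromosome 3, 23958036 to 23965183 in GRCh37, forward strand) had lower levels of the transcripts that run furthest 3′. ENST00000354811.5, which ends at 23961042, held 44.4%, 50.4%, 49.4%, 53.0% and 46.7% of RPL15 in SRp55 siRNA replicates 1 to 5, against 24.7%, 32.4%, 29.3%, 43.1% and 35.6% in control replicates 1 to 5. The groups did not overlap, and the shift was 15.8 points (limma diffSplice adjusted p = 0.039; replicate block 0.046; summed reads 0.0063). The longer ENST00000413699.1, which ends at 23962311, was at 37.4, 41.3, 41.7, 53.0 and 33.4 RPKM in SRp55 siRNA replicates 1 to 5 and at 138, 106, 123, 124 and 97.3 RPKM in control replicates 1 to 5.

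Grouped after seeing the data by whether they end over 100 bases past ENST00000354811.5, the 5 further-reaching RPL15 transcripts summed to 89.7 ± 16.7 RPKM in SRp55 siRNA libraries and 216 ± 20.3 RPKM in control libraries. The 7 others summed to 349 ± 53.8 RPKM in SRp55 siRNA libraries and 319 ± 127 RPKM in control libraries. The further ends thus held 20.4% ± 1.72 of RPL15 in SRp55 siRNA libraries and 41.9% ± 8.59 in control libraries, lower in each of the 5 pairs and without overlap. As the grouping was made with the values known, it carries no test. The usage call of RPL15 was lost without SRp55 siRNA replicate 1, 2 or 3 or control replicate 1, 2, 3 or 5 (adjusted p 0.052 to 0.18), while the shift stayed between 13.7 and 18.3 points with any library left out.

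**Figure D5:**
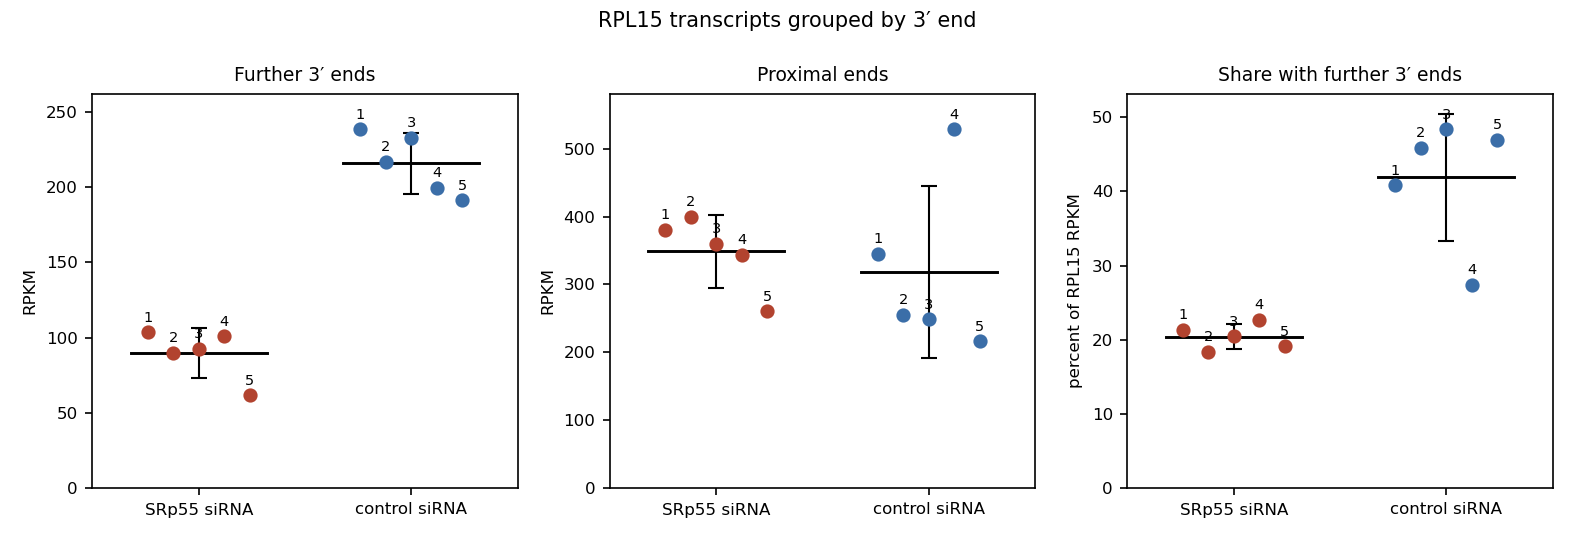
RPL15 transcripts grouped by 3′ end, SRp55 siRNA left of control siRNA; vertical axes are summed RPKM (left and middle) and percent of RPL15 RPKM (right). Points are libraries with their replicate number, bars are means and whiskers SD (n = 5). The further ends do not overlap between groups, and control replicate 4, at 27.4%, is the closest control to the SRp55 siRNA libraries.

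Other large usage shifts varied widely between libraries of a group and were not called. The largest was in RPL29, where ENST00000475248.1 held 0.17% to 1.39% in SRp55 siRNA libraries and 0.61% to 67.4% in control libraries (shift -31.2 points, limma diffSplice adjusted p = 0.59). RPS27L (-22.9 points), RPS2 (20.8) and RPS19 (14.9) had adjusted p of 1.0, 0.80 and 0.60. In RPL39L the minor transcript ENST00000455270.1 held 2.50% ± 1.41 in SRp55 siRNA libraries and 13.7% ± 7.33 in control libraries, without overlap (limma diffSplice adjusted p = 0.11). Its level was near the filter of 0.5 RPKM and overlapped, at 0.14 to 0.56 RPKM in SRp55 siRNA libraries and 0.40 to 2.59 RPKM in control libraries.

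Transcripts annotated as targets of nonsense-mediated decay held 3.62% ± 0.310 of member RPKM in SRp55 siRNA libraries and 4.46% ± 0.406 in control libraries, without overlap of the ranges, 3.28% to 3.95% in SRp55 siRNA and 4.09% to 5.08% in control libraries. The largest RPLP0 transcript, ENST00000549098.1, carries that annotation and was at 125 ± 45.4 RPKM in SRp55 siRNA libraries and 294 ± 37.4 RPKM in control libraries. Without RPLP0 the share was 3.32% ± 0.320 in SRp55 siRNA libraries and 3.68% ± 0.309 in control libraries, and the ranges overlapped. In RPL3 and RPS3, for which unproductive splicing is known in human cells, the decay-annotated transcripts held 8.92% ± 4.56 and 30.5% ± 8.72 in SRp55 siRNA libraries, against 7.90% ± 1.33 and 35.4% ± 4.08 in control libraries. No share of decay-annotated transcripts was obtained for RPL10A and RPL12, also known for unproductive splicing. Summed over transcripts, RPL10A and RPL12 had log2 fold changes of -0.05 and 0.19 and were not called, which does not describe their splicing.

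Short words in 3′ UTRs were looked up because an earlier pass over these data had linked AGGCTTA and CAGGCTT to lower expression, so they are no independent evidence here. On the transcript strand of GENCODE 44 UTRs (GRCh38), 12615 tested genes with a UTR were searched, the 84 members among them. AGGCTTA was in 5 of 84 members (5.95%), RPL15, RPL37A, RPL7L1, RPLP0 and RPS4X, against 10.9% of these tested genes. Of the 5 members RPL37A and RPS4X had log2 fold changes of -0.08 and 0.15. CAGGCTT, which overlaps AGGCTTA by 6 letters, was in 11 members (13.1%) against 18.1% of tested genes, and the shared core AGGCTT was in 23 (27.4%), RPL7 included, against 42.0%. A longer UTR holds more words, and these shares were not adjusted for UTR length. The sites of the 2 members called for expression or usage are shown with the word in capitals, at chr12:120196703-120196732 (-) for RPLP0 and chr3:23919750-23919779 (+) for RPL15.
RPLP0: acaaggaaataaAGGCTTActtctttaaaa
RPL15: gtgtggtataaCAGGCTTAataaattcttt
In RPL15 AGGCTTA begins at base 261 of the 3′ UTR in 3 annotated transcripts, whose UTRs are 1355 or 1488 bases long. The 50-base UTR of ENST00000354811.5 and the 2699-base UTR of ENST00000456530.7 do not hold it. A match describes these letters and shows no binding.

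Genes that work with the ribosomal proteins are given by list, beside the 5.02% of all tested genes that limma called. Among ribosomal proteins outside the naming rule, FAU, which is made as a fusion to a ubiquitin-like protein, averaged 167 ± 32.5 RPKM in SRp55 siRNA libraries and 125 ± 60.4 RPKM in control libraries. RACK1, a scaffold protein on the small subunit, averaged 362 ± 64.5 RPKM in SRp55 siRNA libraries and 323 ± 120 RPKM in control libraries, and neither was called (0 at an unadjusted p under 0.05 in limma). Of 13 elongation factors and other TOP mRNAs none was called by limma and 2 had an unadjusted p under 0.05 (median log2 fold change 0.03). Of 50 ribosome biogenesis genes none was called and 9 had an unadjusted p under 0.05 (median 0.06), and of 14 genes of RNA polymerase I transcription none and 2 (0.05). The share of all tested genes at that unadjusted p was 21.9%.

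Among 8 noncoding host genes of small nucleolar RNAs SNHG1, itself a TOP transcript, rose to 33.8 ± 6.41 RPKM in SRp55 siRNA libraries, against 20.8 ± 3.53 RPKM in control libraries (log2 fold change 0.57, limma adjusted p = 0.034; list median 0.01). Of 15 tested regulators of ribosomal protein synthesis and ribosomal stress EIF4EBP2, a repressor of cap-dependent translation under mTOR, rose to 54.2 ± 3.21 RPKM in SRp55 siRNA libraries, against 41.4 ± 2.35 RPKM in control libraries (0.28, limma adjusted p = 0.039; list median 0.13). The other 7 and 14 genes of these lists did not pass, where 5.02% of all tested genes were called.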

How the data were processed

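PolyA RNA of 5 SRp55 siRNA and 5 control siRNA preparations was sequenced on an Illumina HiSeq, per the labels' protocols, from RNA purified on columns that favour molecules above 200 bases. Alignment used TopHat and the GRCh37 (hg19) build, per the submitters' processing notes. How reads were shared among transcripts, from which annotation release and with what strand setting is not given in the sources used here. A deposited file holds 155130 transcripts with an estimated read count, often fractional, and an RPKM value in a text field; the deposited RPKM equals reads over length and over 1 total per library, which exceeds the assigned reads (assigned 87.0% ± 7.24 of it in SRp55 siRNA libraries and 82.1% ± 6.82 in control libraries).

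Gene values were sums of transcript RPKM. Symbols and transcript types came from GENCODE 44 by Ensembl ID (95.0% and 92.4% matched), and members were matched by ID. Testing was limited to genes averaging 0.5 RPKM or more and done with limma 3.58.1 (R 4.3.3, trend and robust) on log2(RPKM + 0.5), which understates the fold change of low genes, with Benjamini-Hochberg adjustment. Log2 fold changes are relative to the median tested gene, which moved by 0.11 as deposited and by 0.01 with median-of-ratios scaling, while adjusted p-values refer to the change before that subtraction. The count model planned for a numeric column was not fitted, since both values sit inside an attribute string, and limma on summed reads was run in its place as an alternative. In the usage test transcripts needed 0.5 RPKM and 5% of the gene; diffSplice assumes one spread for a gene's transcripts. Scripts were tested on simulated data with known changes.

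Replicate numbers come from the sample titles. Deviations from group means correlated at 0.13 to 0.41 between libraries of equal number and at -0.17 to 0.12 between others. Same-numbered libraries were therefore also compared as pairs. The main fits left the replicate number out, and the replicate block was an alternative. The members and lists were chosen with earlier results of these data known. Named genes were SRSF6, members called in either test or only with the replicate block or on summed reads, the stalk, RPL5, RPL11, RPL3, RPL10A, RPL12, RPS3, paralogs with partners, the 5 highest and 5 lowest levels, the 5 largest changes each way, the 5 largest usage shifts and called genes of other lists. The precision of low levels cannot be read from RPKM alone. Some items are not reported here.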

Additional observations from a re-analysis of the deposited data

Results flagged for a closer look

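Among 74 groups of 5 libraries of named members and their sum, 11 had a library set apart from the other 4 by most of the group's range. By chance about 1 in 20 groups would, if the groups were independent. Members were high or low together in a library, so that rate cannot be set against these 11 groups. In 7 of them SRp55 siRNA replicate 5 was low: the RPKM sum of the members was 31678 (the others at least 44552), RPL11 was at 578 RPKM, RPL12 at 227, RPL15 at 322, RPL26L1 at 39.2, RPS15A at 307 and RPS20 at 289. SRp55 siRNA replicate 1 was high for RPL3, at 1134 RPKM (the others up to 671), and for RPL5, at 739 RPKM (the others up to 400). Control replicate 4 was high for RPL3, at 861 RPKM (the others up to 603), and for RPS19, at 717 RPKM (the others up to 401). The source of these differences was not tested.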

How the results depend on the processing

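The limma counts depended on scaling, block and library, and the call of RPLP0 held in every alternative run (log2 fold change -1.17 to -0.99, adjusted p at most 0.048). Members called numbered 1 as planned, 3 with median-of-ratios scaling, 4 scaled to assigned reads, 5 on summed reads (RPL39L higher, RPLP0, RPL7, RPL15 and RPL7L1 lower; 17.2% of all genes called), 4 with the replicate block (RPS15A and RPL39L higher, RPLP0 and RPL7 lower; 13.1% called), 2 scaled to the ribosomal proteins, and 1 to 3 with a library left out. All genes called numbered 684 (513 higher, 171 lower) as planned, 2340 on summed reads, 1784 with the replicate block, 245 scaled to the ribosomal proteins, and 259 to 1085 with a library left out. With median-of-ratios scaling 433 were higher and 500 lower. The replicate block changed no other member's call. In the usage test 28 genes were called, 48 from reads, 31 with the replicate block and 14 to 46 with a library left out, and 0 or 1 member was called with a library left out. The cause of these moves was not tested. No member's value turned its direction past the threshold, but the balance of all genes called did: 995 were higher and 1345 lower on summed reads, and 75 and 170 scaled to the ribosomal proteins. Pseudocounts of 0.1 and 1 and other filters on low values left RPLP0 as the 1 member called. Reads shared with pseudogenes and among near-identical transcripts limit all levels, and an effect of lower SRp55 cannot be told apart from another effect of the 1 siRNA used.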

Other observations

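Member levels also differed by transcript length between libraries. The ratio of the index over the 28 shortest members (323 to 605 bases) to that over the 28 longest (733 to 2172 bases) was 1.17 in SRp55 siRNA replicate 3 and 0.787 in SRp55 siRNA replicate 4, against 1.28 in control replicate 2 and 0.831 in control replicate 1. The group means were 0.978 ± 0.140 in SRp55 siRNA libraries and 1.04 ± 0.163 in control libraries (SD, n = 5). The median log2 fold change was -0.03 over the shortest, 0.16 over the 28 in between and 0.11 over the longest members, and over all 84 members Spearman's rho of length with log2 fold change was 0.16, across genes that share the same libraries.

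Genes that read through from a member into its neighbour were present as well. RPL17-C18orf32 averaged 33.7 RPKM and RPL36A-HNRNPH2 21.6 RPKM over the 10 libraries, next to 208 ± 57.0 RPKM for RPL36A in SRp55 siRNA libraries and 219 ± 82.9 RPKM in control libraries.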
